A study of Mus musculus with 24 samples.

Results

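Gene expression was compared between dorsal root ganglia (DRG) and the lumbar part of the spinal cord 1 day after injection of an agonist antibody to LTβR, the lymphotoxin beta receptor, into the hind paw of mice. The comparison used 6 of the 24 libraries of the series, chosen by their labels: the 3 DRG libraries and the 3 cord libraries of the day-1 agonist groups. It covered all 22609 gene symbols of the count tables. Both groups came from C57 males, 8 to 12 weeks old, that had received 10 µg of the agonist once. The ganglia were those of levels L3 to L5 on the injected side, and no side was named for the cord. Both groups carried the agonist treatment, so the comparison is between tissues of treated mice and does not measure the effect of the agonist. DRG of mice given IgG, and DRG and cord on day 6 after 2 injections, each with 3 libraries, are used below only where they are named. None of the 24 libraries of the series is from cord after IgG, so cord levels could not be set against a control. The labels number the libraries of a group but do not say whether each came from its own animal or whether ganglia were pooled, so the spread behind each p-value is that between libraries, which may be technical.

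Sensory neurons of the DRG carry touch, temperature, pain and itch from the skin to the cord. They use glutamate as their transmitter, their cell bodies are wrapped by satellite glia, and their axons are ensheathed by Schwann cells. The ganglion holds no interneurons and its vessels form no tight barrier to the blood. The spinal cord holds excitatory interneurons that release glutamate, inhibitory interneurons that release GABA or glycine, and cholinergic motor neurons, together with oligodendrocytes, astrocytes, microglia and the ciliated ependymal cells of the central canal.

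In units of 1e6, reads counted in genes numbered 30.6, 33.0 and 29.5 in DRG libraries 1, 2 and 3, and 26.3, 24.4 and 24.4 in cord libraries 1, 2 and 3. Levels are CPM, counts per 1e6 reads counted in genes, scaled by TMM factors, with SD over the 3 libraries of a group. A count of 3, taken as the floor of detection, equalled 0.0924 to 0.103 CPM in DRG and 0.113 to 0.124 CPM in cord, and covers counting error only. Log2 CPM correlated at 0.9804 to 0.9923 among the DRG libraries, at 0.9907 to 0.9935 among the cord libraries and at 0.7934 to 0.8237 between tissues. The share of uniquely placed reads outside annotated genes was 13.1 to 13.4% in DRG and 14.8 to 15.5% in cord. The labels name the cord libraries in another style than the DRG libraries and give no run, so tissue and any difference in library preparation cannot be told apart. Libraries also differed within a tissue. Summed over a list of 18 skeletal muscle genes, the level was 7616, 524 and 103 CPM in DRG libraries 1, 2 and 3 and 473, 299 and 275 CPM in cord libraries 1, 2 and 3. Summed over 34 fibroblast and meningeal genes it was 7758, 7171 and 7201 CPM in DRG and 1559, 2568 and 1816 CPM in cord. Leaving out DRG library 1, the highest for both sums, together with cord library 2, the highest in cord for the fibroblast and meningeal sum, was an alternative added after the data were seen. It called 4072 genes past 2-fold in place of 4080, and 3812 genes were called in both.

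Of 15567 genes with enough counts to be tested, 11686 differed between tissues (edgeR quasi-likelihood test, Benjamini-Hochberg adjusted p under 0.05), which was 75.1% of genes. A stricter call asked whether a difference was larger than 2-fold, with the same adjustment. It was met by 4080 genes, or 26.2%, of which 2125 (13.7%) were higher in DRG and 1955 (12.6%) were higher in cord. All counts of called genes below use this stricter call, named past 2-fold, unless another is given. The day-1 count of each gene list is to be read beside these shares of all genes, 13.7% in DRG and 12.6% in cord. Differences are given as log2 fold changes, DRG minus cord, with their standard error. Their median over all genes tested was 0.00. Differences above 16-fold were estimated for 333 genes called in DRG and 450 called in cord. At the other end, the 95% confidence interval of the difference lay within 2-fold in both directions for 8677 genes (55.7%). In bulk tissue, fewer cells of a type and less RNA per cell cannot be told apart.

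**Figure D1:**
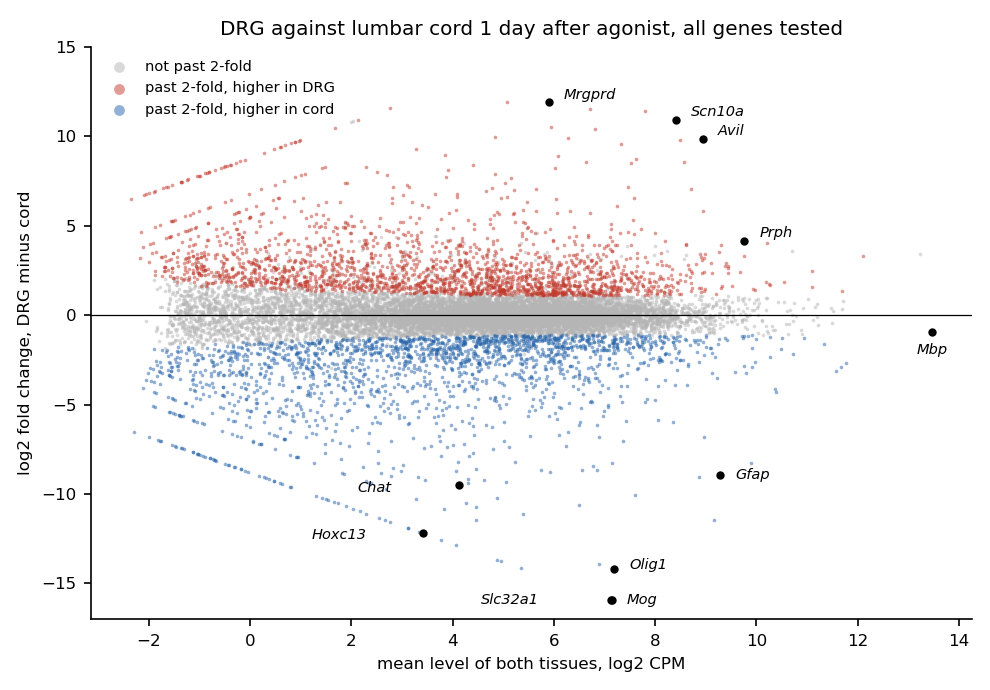
Log2 fold change (DRG minus cord, vertical) against the mean log2 CPM of both tissues (horizontal) for the 15567 genes tested on day 1. Each point is a gene, coloured where it was past 2-fold; the slanted lines of points at low levels are genes with 0 counts or a few counts in 1 tissue, and 11 genes named in the text are marked in black.

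The labelled tissues were checked against markers of their cells. Avil, which encodes the actin-binding protein advillin of sensory neurons, was at 917, 973 and 1068 CPM in the DRG libraries and 0.793, 1.2 and 1.15 CPM in the cord libraries. Mog, a myelin protein made by oligodendrocytes alone, had 0 counts in all 3 DRG libraries and was at 293, 259.9 and 290.4 CPM in cord. Gfap, the intermediate filament of astrocytes, was at 1.78, 2.83 and 2.76 CPM in the DRG libraries and 1255, 1248 and 1215 CPM in the cord libraries. In each case every library carried the profile of its labelled tissue, and the groups did not overlap, which was so for 79.2% of all genes tested. Peripheral myelin genes were present in cord as well: Prx, the periaxin of Schwann cells, was at 3013, 3448 and 2752 CPM in the DRG libraries and 51.8, 481 and 240 CPM in the cord libraries. It was lowest in cord library 1 and highest in cord library 2, as was the sum over fibroblast and meningeal genes, and the part that nerve roots or meninges took in the cord libraries was not tested.

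**Figure D2:**
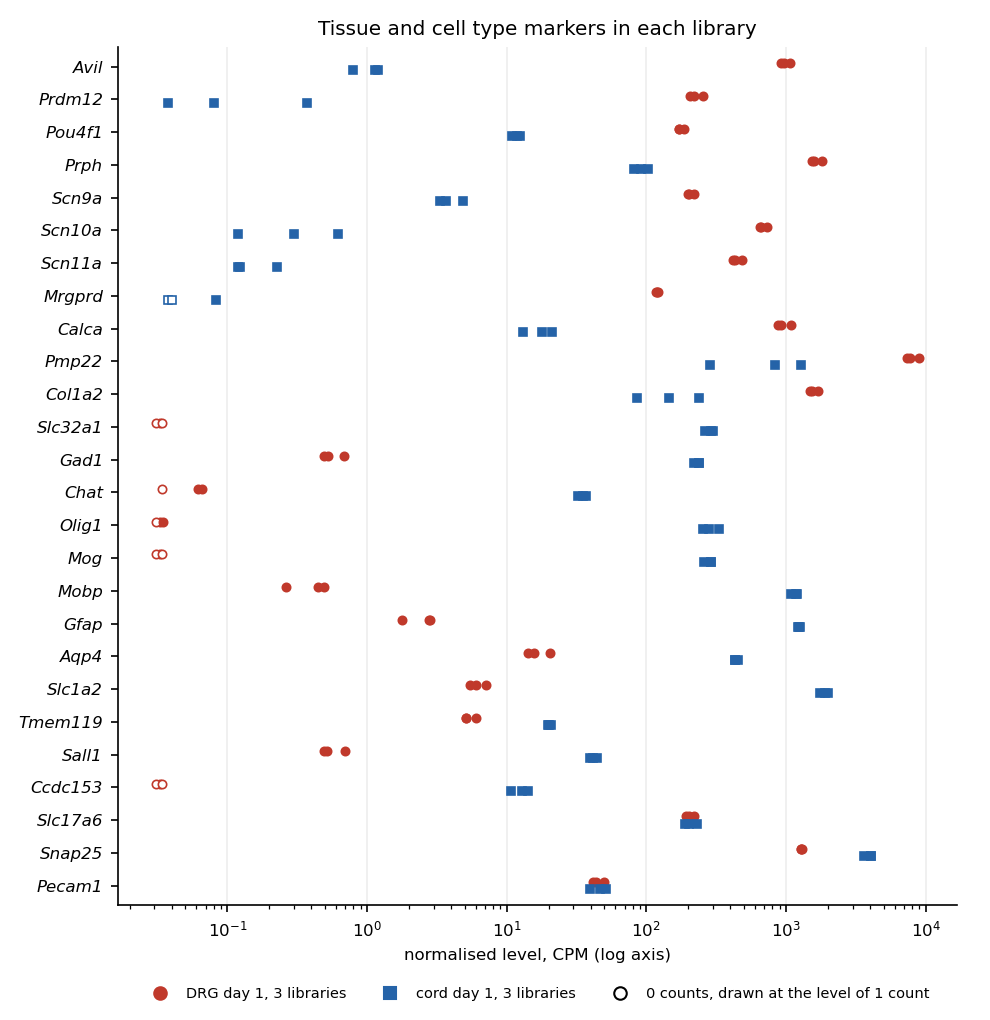
Level of 26 marker genes in each library, in CPM on a log axis; circles are the 3 DRG libraries, squares the 3 cord libraries, and open symbols are 0 counts drawn at the level of 1 count. Sensory neuron genes at the top stand high in DRG, interneuron, oligodendrocyte, astrocyte and ependymal genes stand high in cord, and Slc17a6 and Pecam1 overlap.

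By a rule on fold change, level and lack of overlap, the genes highest in DRG against cord were led by Mrgprd, a receptor of non-peptidergic pain and itch neurons, with 118, 121 and 119 CPM in DRG and a total of 2 counts in cord. The ratio of levels was 4512 (95% counting interval 1249 to 37266). Tlx2, a homeobox gene of the peripheral nervous system, had 1 count in cord and a ratio of 5099.6 (95% counting interval 915 to 201454). Slc17a7, which encodes the vesicular glutamate transporter VGLUT1, was at 209, 219 and 199 CPM in the DRG libraries and 0.0378, 0.12 and 0.0412 CPM in the cord libraries, with 5 counts in cord and a ratio of 3166 (95% counting interval 1356 to 9750.3). Pirt, a membrane protein that binds TRPV1, was at 723 ± 53.1 CPM in DRG and 0.822 ± 0.255 CPM in cord (9.78 ± 0.17). Others were Mrgprx1, Scn11a, Scn10a, Prdm12, Gfra3 and Avil, described below, and Tmem45b, Tmem233, Lhfpl1 and Tmem72, which are less well characterised and ranged from 19.3 ± 2.52 to 155 ± 13.4 CPM in DRG.

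In the other direction, Slc32a1, which loads GABA and glycine into synaptic vesicles, had 0 counts in DRG and 290.3, 262 and 302 CPM in cord, at least 2897-fold higher in cord. Mog was at least 2861-fold higher, and Slc30a3, the transporter that fills synaptic vesicles with zinc, at least 831-fold. Olig1, an oligodendrocyte transcription factor, had 1 count in DRG against a mean of 291 ± 39.5 CPM in cord. Dao, the D-amino acid oxidase of astrocytes that degrades D-serine, had 1 count in DRG and 45.2, 44.8 and 42.3 CPM in cord. The same rule named Ermn, Olig2, Sall3, Hoxc13, Neu4, Ccdc153, Mobp and Lhx5, of which Hoxc13, Ccdc153, Mobp and Lhx5 are described below and Ermn, Olig2 and Neu4 are genes of the oligodendrocyte lineage, and Bpifa2e and Olfr287, whose roles in cord are not established. Bpifa2e was at 35.9, 31.6 and 32.8 CPM in cord with 0 counts in DRG.

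**Figure D3:**
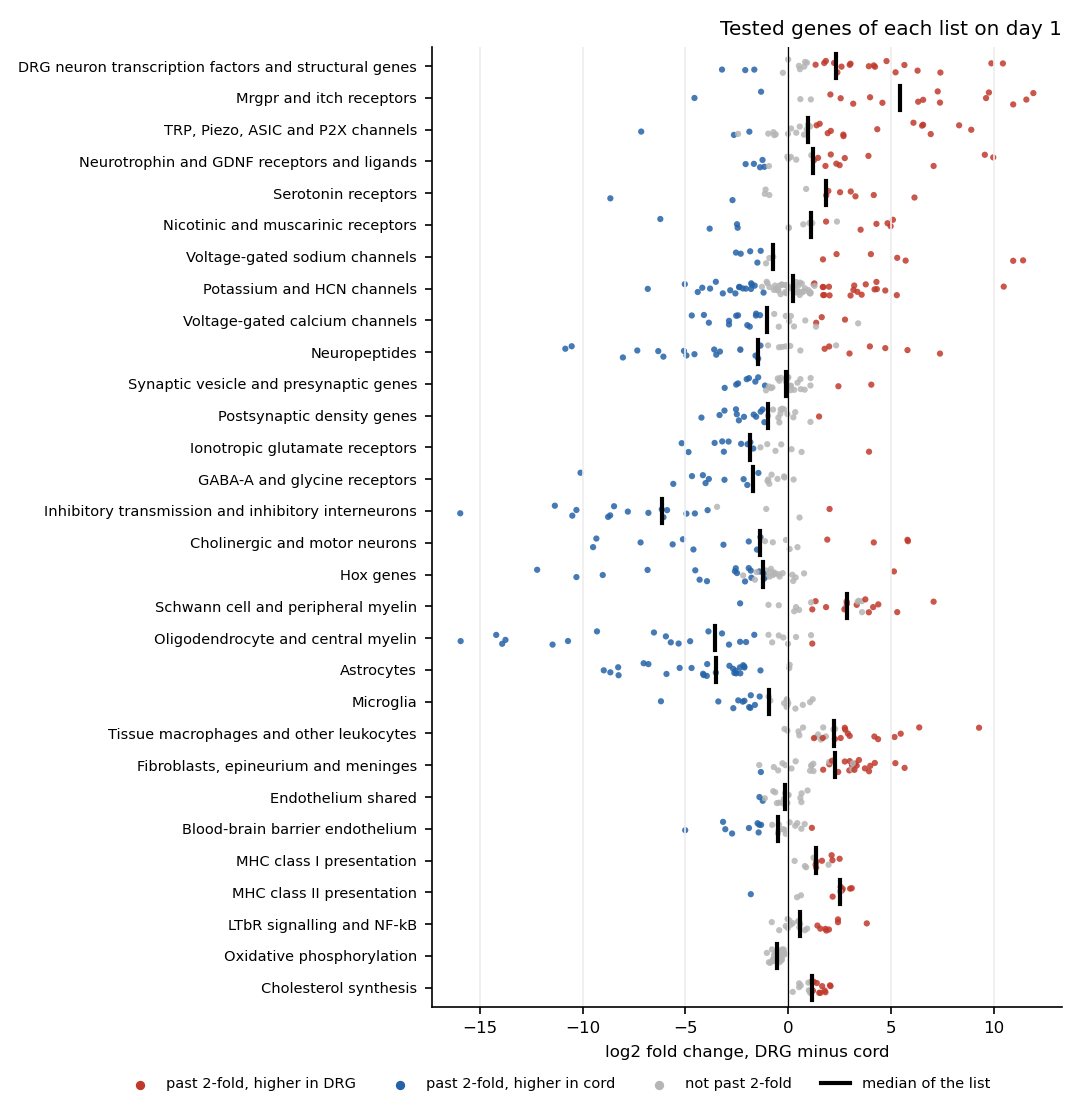
Log2 fold change (DRG minus cord, horizontal) of the tested genes of 30 gene lists, 1 row per list; each point is a gene, red past 2-fold in DRG, blue past 2-fold in cord and grey neither, and the black bar is the median of the list. Mrgpr and itch receptors and peripheral myelin lie to the right, inhibitory transmission, oligodendrocytes and astrocytes to the left, and sodium channels, potassium channels and neuropeptides spread over both sides.

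Genes that specify and shape sensory neurons were mostly higher in DRG. Of 28 tested, 18 were past 2-fold in DRG and 3 in cord, with a median log2 fold change of 2.31 against 0.00 over all genes. Prdm12, a transcription factor needed for pain-sensing neurons, was at 205, 218 and 254 CPM in the DRG libraries and 0.0378, 0.0803 and 0.371 CPM in the cord libraries. Its log2 fold change was 10.44 ± 0.34 (adjusted p = 6.14e-06), and the groups did not overlap. Pou4f1 (Brn3a), expressed by most DRG neurons, was at 173, 173 and 186 CPM in the DRG libraries and 11.9, 11 and 12.4 CPM in the cord libraries, a log2 fold change of 3.92 ± 0.06. Isl1, its partner in sensory specification, was at 81.6 ± 5.49 CPM in DRG and 2.19 ± 0.171 CPM in cord. Runx1 and Runx3, which direct pain-sensing and proprioceptive neurons respectively, had log2 fold changes of 5.65 ± 0.12 and 6.29 ± 0.24. Prph, the intermediate filament peripherin of small sensory and motor neurons, was at 1532, 1577 and 1809.7 CPM in the DRG libraries and 91.7, 81.1 and 103 CPM in the cord libraries, and so was well above the floor in cord too.

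General neuronal structure differed less. The neurofilament genes Nefl, Nefm and Nefh had log2 fold changes of 1.33 ± 0.09, 0.82 ± 0.07 and 0.91 ± 0.09, of which only Nefl was past 2-fold. Tubb3, the neuronal beta tubulin, was at 1.83 ± 0.09 and Uchl1, the neuronal ubiquitin hydrolase, at 1.75 ± 0.08, both called in DRG. Rbfox3, which encodes the neuronal nuclear marker NeuN, was at 239.6 ± 21.8 CPM in DRG and 289 ± 7.94 CPM in cord, with a 95% interval of the log2 fold change of -0.42 to -0.11. The whole interval lay within 2-fold. The 3 members past 2-fold in cord were Ina, the internexin filament of central neurons (-3.22 ± 0.08), Neurod1 (-2.09 ± 0.23) and Etv4 (-1.65 ± 0.10).

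Voltage-gated sodium channels divided by subunit. Of 15 tested, 7 were past 2-fold in DRG and 5 in cord. Scn10a, which encodes the tetrodotoxin-resistant channel NaV1.8 of pain-sensing neurons, was at 650.3, 666 and 728 CPM in the DRG libraries and 0.302, 0.12 and 0.618 CPM in the cord libraries. Scn11a (NaV1.9) was at 415, 434 and 483 CPM in the DRG libraries and 0.227, 0.12 and 0.124 CPM in the cord libraries. Scn9a (NaV1.7), the channel whose loss abolishes pain, was at 201, 199 and 220.1 CPM in the DRG libraries and 4.84, 3.69 and 3.34 CPM in the cord libraries. Their log2 fold changes were 10.94 ± 0.30, 11.42 ± 0.14 and 5.71 ± 0.13, and in all 3 genes the lowest DRG library was above the highest cord library. The channels of central neurons lay on the other side: Scn1a was at 77.1 ± 4.08 CPM in DRG and 279 ± 21.6 CPM in cord (-1.85 ± 0.07), Scn2a1 at 10.4 ± 0.402 CPM in DRG and 60.7 ± 4.01 CPM in cord (-2.54 ± 0.07) and Scn3a at 2.87 ± 0.56 CPM in DRG and 14.3 ± 1.78 CPM in cord (-2.31 ± 0.16). Scn8a (NaV1.6), the channel of nodes of Ranvier in both tissues, had a log2 fold change of -1.08 ± 0.06 and was not past 2-fold, but was so without cord library 2 and with upper-quartile or library-size scaling. Among the auxiliary subunits, Scn3b was higher in DRG (1.69 ± 0.08) and Scn2b in cord (-1.50 ± 0.07). Scn7a, a sodium-sensing channel of Schwann cells, was at 361, 377 and 371 CPM in the DRG libraries and 2.53, 21.3 and 4.53 CPM in the cord libraries and Scn4a, the skeletal muscle channel, at 22, 8.29 and 7.58 CPM in the DRG libraries and 1.21, 0.402 and 0.701 CPM in the cord libraries. Both were called in DRG, but Scn7a was not past 2-fold without DRG library 2, DRG library 3 or cord library 3, and Scn4a was not without cord library 2 or cord library 3. Scn4a was also highest in DRG library 1, the library with the most skeletal muscle RNA.

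Channels that transduce heat, cold, touch and ATP were called more often in DRG. Of 29 tested, 13 were past 2-fold in DRG and 3 in cord. Trpv1, the receptor for capsaicin and heat, was at 110.1, 111 and 182 CPM in the DRG libraries and 0.151, 0.361 and 0.33 CPM in the cord libraries (8.90 ± 0.43, adjusted p = 7.73e-05). Trpa1, the receptor for irritants such as mustard oil, was at 43.6, 49.5 and 57.7 CPM in the DRG libraries and 0.453, 0.602 and 0.165 CPM in the cord libraries (6.93 ± 0.27). Trpm8, the cold and menthol receptor, was at 12, 10.2 and 7.1 CPM in DRG with 2 counts in cord, a ratio of 371 (95% counting interval 102 to 3069.8). Cord transcripts of all 3 were thus below 1 CPM in every library. P2rx3, the ATP-gated channel of sensory neurons, was at 377 ± 40.1 CPM in DRG and 4.03 ± 0.263 CPM in cord and Fam38b, the older symbol of the touch channel Piezo2, at 301 ± 2.45 CPM in DRG and 4.45 ± 0.852 CPM in cord. Accn3, which is the acid-sensing channel ASIC3, had a log2 fold change of 6.51 ± 0.08, whereas Accn4 (ASIC4) was at 9.07, 11.6 and 9.11 CPM in cord with 6 counts in DRG, a ratio of cord to DRG of 152 (95% counting interval 69.3 to 414). Accn1 (ASIC2) and Accn2 (ASIC1), which both tissues express, were at 0.56 ± 0.10 and -0.61 ± 0.06 and not past 2-fold. Fam38a (Piezo1) was at 1.06 ± 0.22 and also not past 2-fold. P2rx7, the ATP channel of immune and glial cells, was at 89.1, 90.6 and 72.5 CPM in the DRG libraries and 14.1, 27.5 and 18.7 CPM in the cord libraries; it was called in DRG, though not without DRG library 1, DRG library 2 or cord library 3.

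Receptors of itch and of the Mrgpr family, which mark subsets of unmyelinated fibres, had a median of 5.45, or 4.73 with the 4 genes at 0 counts in cord set to their lower bound. Of 23 listed, 18 could be tested, and 14 were past 2-fold in DRG and 2 in cord. The other 5, among them Mrgpra1 and Mrgpra4, had too few counts in both tissues. Mrgpra3, the chloroquine receptor, had 7.69, 9.03 and 9.54 CPM in DRG and 0 counts in cord, at least 73.5-fold higher in DRG. Mrgprx1 and Mrgprb4, the latter a mark of neurons that respond to stroking, also had 0 counts in cord and were at least 114-fold and 29.5-fold higher. Il31ra, a subunit of the receptor for the itch cytokine interleukin 31, was at 14.8, 17 and 18.9 CPM in the DRG libraries and 0, 0.281 and 0.0412 CPM in the cord libraries. Its partner Osmr was at 52 ± 2.12 CPM in DRG and 8.91 ± 1.4 CPM in cord, a smaller difference of 2.55 ± 0.10. Nppb, the natriuretic peptide that relays itch to the cord, was at 7.03, 6.87 and 8.09 CPM in DRG with 3 counts in cord. Mrgpr genes include near-identical copies, so their counts are uncertain where reads could be placed at several of them. Sst (somatostatin), a peptide of itch neurons and of dorsal horn interneurons, was at 3.76, 4.44 and 5.34 CPM in the DRG libraries and 108, 105 and 107 CPM in the cord libraries. It was 1 of the 2 members higher in cord; the other, the histamine receptor Hrh1, was not past 2-fold with DESeq2.

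Neuropeptides split with the larger share on the cord side: of 31 tested, 7 were past 2-fold in DRG and 16 in cord. Calca, which encodes the pain peptide CGRP, was at 877, 922 and 1092 CPM in the DRG libraries and 21.2, 13.1 and 17.8 CPM in the cord libraries (5.80 ± 0.23). Tac1, the precursor of substance P, was at 201 ± 43.5 CPM in DRG and 25.7 ± 1.61 CPM in cord (2.98 ± 0.17) and Adcyap1, the precursor of PACAP, at 82 ± 14.8 CPM in DRG and 24.2 ± 2.1 CPM in cord (1.77 ± 0.14). Nmb, a peptide of itch and pain fibres, was at 4.72 ± 0.10. On the cord side, Tac2, the neurokinin B precursor of dorsal horn neurons, was at 29.6, 28.7 and 26.9 CPM with 1 count in DRG. Grp, gastrin-releasing peptide, which relays itch within the dorsal horn, was at 6.42, 7.19 and 6.27 CPM in cord with 0 counts in DRG, at least 67.4-fold higher in cord. Trh and Cck were at 6.91 ± 0.49 and 23.8 ± 1.8 CPM in cord and at 0.0205 ± 0.0356 and 0.143 ± 0.107 CPM in DRG. The opioid precursors Penk and Pnoc had log2 fold changes of -3.50 ± 0.44 and -6.07 ± 0.32, both higher in cord, and the precursor Pdyn had 6 counts in DRG and a ratio of cord to DRG of 85.6 (95% counting interval 39 to 234). Penk was at 13.1, 11.8 and 29.9 CPM in the DRG libraries and 209, 212 and 202 CPM in the cord libraries, and was not past 2-fold when DRG library 1 and cord library 2 were both left out. Chga and Chgb, granins of secretory vesicles, were higher in cord by 2.76-fold and 3.01-fold.

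Receptors for neurotrophins and for GDNF-family ligands, which keep sensory neurons alive and set their subtypes, gave 11 of 22 past 2-fold in DRG and 5 in cord. Ntrk2 (TrkB), the receptor for brain-derived neurotrophic factor, was higher in cord, at 118, 121 and 131 CPM in the DRG libraries and 398, 395 and 391 CPM in the cord libraries (-1.67 ± 0.06), as was Ntrk3 (TrkC), at 36.2 ± 1.94 CPM in DRG and 93.6 ± 3.99 CPM in cord (-1.37 ± 0.06). Of the co-receptors, Gfra3, which binds artemin, was at 49.7, 50.4 and 72 CPM in the DRG libraries and 0.0378, 0.0803 and 0.0412 CPM in the cord libraries, and Gfra2 and Gfra1 were at 2.50 ± 0.09 and 1.45 ± 0.07. Their shared signalling subunit Ret was at 809 ± 73.5 CPM in DRG and 161 ± 11.2 CPM in cord (2.34 ± 0.08). Among ligands, Bdnf was higher in DRG (1.81 ± 0.09). Artn and Sort1 made up the rest of the cord calls beside Ntrk2, Ntrk3 and Cntfr; both Artn (-2.07 ± 0.43) and Sort1 (-1.16 ± 0.08) were lost without cord library 1 or cord library 3 and with DESeq2 or voom, which left 3, and Artn was also lost without DRG library 2 and Sort1 without DRG library 3 or cord library 2. With a filter at 1 CPM in 3 libraries the cord count was also 3, since Artn was then not tested and Sort1 missed the threshold.

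Receptors for serotonin and acetylcholine also divided by subunit. Htr3a and Htr3b, which together form the serotonin-gated ion channel, were at 159 ± 27.4 CPM in DRG and 8.94 ± 0.325 CPM in cord and 20.7 ± 3.23 CPM in DRG and 0.29 ± 0.0776 CPM in cord, with log2 fold changes of 4.16 ± 0.13 and 6.14 ± 0.20. Htr1d and Htr1b, the receptors on which triptans act, were at 3.27 ± 0.12 and 3.04 ± 0.21. Htr2c, a receptor for descending serotonin in the cord, was at 0.231, 0.277 and 0.276 CPM in the DRG libraries and 116, 98.1 and 107 CPM in the cord libraries, a log2 fold change of -8.65 ± 0.12. In all, 7 of 13 serotonin receptors were past 2-fold in DRG and 2 in cord. For nicotinic and muscarinic receptors the counts were 6 and 4 of 16. Chrna6 and Chrnb3, which join in one nicotinic receptor, were at 5.09 ± 0.17 and 4.98 ± 0.38, and Chrna7 at 4.83 ± 0.40. The cord side held Chrna4 (-3.82 ± 0.13) and the muscarinic receptor Chrm3 (-2.49 ± 0.17). It also held Chrna2, the mark of Renshaw cells, with 5 counts in DRG and a ratio of cord to DRG of 80.6 (95% counting interval 34.2 to 249.8).

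Potassium and HCN channels were divided, with 19 of 76 past 2-fold in DRG, 18 in cord and a median of 0.23. Kcnk18, which encodes the background channel TRESK, was at 5.64, 6.9 and 6.65 CPM in DRG with 0 counts in cord, at least 53.7-fold higher in DRG. Within the Kv4 family, Kcnd1 was at 152 ± 10.6 CPM in DRG and 14.8 ± 1.28 CPM in cord and Kcnd2 at 1.78 ± 0.255 CPM in DRG and 58.2 ± 4.39 CPM in cord, so that these related subunits lay on opposite sides (3.36 ± 0.08 and -5.03 ± 0.11). Kcns1, a silent subunit of sensory neurons, was at 3.17 ± 0.08, and Kcnmb1 and Kcnn4, parts of calcium-activated channels, were at 4.29 ± 0.09 and 4.20 ± 0.13. Kcnc1, which gives fast-spiking neurons their brief spikes, was higher in cord (-2.39 ± 0.08). So was Kcnab3, an auxiliary subunit, at 1.91, 2.19 and 2.03 CPM in the DRG libraries and 238, 217 and 247 CPM in the cord libraries. Kcnj10 (Kir4.1), the potassium buffering channel of astrocytes and of satellite glia, was at 91.2, 98.5 and 95.9 CPM in the DRG libraries and 1134, 1060.1 and 1088 CPM in the cord libraries (-3.52 ± 0.06). Among pacemaker channels, Hcn2 was higher in cord (-1.81 ± 0.09). The shaker channel Kcna1 was at 645 ± 5.98 CPM in DRG and 593 ± 37.1 CPM in cord, within 2-fold.

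Of 24 calcium channel genes, 3 were past 2-fold in DRG and 12 in cord, against 13.7% and 12.6% of all genes tested. The DRG count thus lay near the share of all genes. Cacna2d1, the binding site of gabapentin, was at 152, 157 and 182 CPM in the DRG libraries and 54.4, 57.1 and 47.8 CPM in the cord libraries (1.63 ± 0.09). Cacna1b, the N-type channel of sensory terminals, was at 1.36 ± 0.09 and Cacnb3, an auxiliary subunit, at 2.76 ± 0.08. The T-type channels split. Cacna1g was at 3.54 ± 0.106 CPM in DRG and 92.2 ± 6.72 CPM in cord (-4.69 ± 0.08) and Cacna1i at -2.44 ± 0.10, both higher in cord, whereas Cacna1h, the T-type channel known for its role in DRG neurons, was at 0.83 ± 0.14, not past 2-fold. Opioid receptors differed by gene: Oprd1 was higher in DRG (1.52 ± 0.18; not past 2-fold with DESeq2), Oprk1 and the nociceptin receptor Oprl1 were higher in cord (-2.05 ± 0.14 and -2.24 ± 0.08), and Oprm1, the receptor for morphine, was low in both, at 0.625 ± 0.0998 CPM in DRG and 0.239 ± 0.126 CPM in cord, and not past 2-fold.

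Genes of inhibitory transmission were mostly higher in cord. Of 19 tested, 15 were past 2-fold in cord and 1 in DRG, with a median of -6.15, or -5.89 with the 4 genes at 0 counts in DRG set to their bound. Gad1, which makes GABA from glutamate, was at 0.495, 0.524 and 0.689 CPM in the DRG libraries and 237, 239.7 and 219.5 CPM in the cord libraries (-8.66 ± 0.10, adjusted p = 1.58e-11). Gad2 was at 0.273 ± 0.0397 CPM in DRG and 120.4 ± 6.23 CPM in cord. Slc6a5, the glycine transporter of inhibitory terminals, had 0 counts in DRG and was at 1.4, 1.61 and 1.77 CPM in cord, at least 16.2-fold higher. Pax2 and Lhx5, transcription factors of inhibitory interneurons, were at 49.5 ± 0.628 and 11.7 ± 0.445 CPM in cord, and Lhx5 had 0 counts in DRG. Of 18 GABA-A and glycine receptor subunits, 10 were past 2-fold in cord and 0 in DRG. Glra1, the adult glycine receptor subunit, was at 4.23, 5.54 and 4.99 CPM in cord with 0 counts in DRG, at least 50.1-fold higher, and Gabra5 was at 5.55 ± 0.302 CPM in DRG and 90.4 ± 6.73 CPM in cord. Nos1, which makes nitric oxide, was the 1 member higher in DRG, at 2.91 ± 0.701 CPM in DRG and 0.724 ± 0.132 CPM in cord.

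Of the vesicular glutamate transporters, Slc17a6 (VGLUT2) was at 194, 204 and 221 CPM in the DRG libraries and 230.1, 191 and 202 CPM in the cord libraries. The groups overlapped, and the log2 fold change was 0.00 ± 0.08, with a 95% interval of -0.18 to 0.17. Slc17a7 (VGLUT1) had the few cord counts given above, and Slc17a8 (VGLUT3) was at 12.1 ± 0.366 CPM in DRG and 0.799 ± 0.215 CPM in cord (3.92 ± 0.18). Of 18 genes of excitatory transmission and excitatory interneurons, 6 were past 2-fold in DRG and 9 in cord. The cord members included Lmx1b (-3.89 ± 0.33), a dorsal horn transcription factor, and the tachykinin receptors Tacr1 and Tacr3, which receive substance P and neurokinin B. Tacr1 was at 0.363, 0.308 and 0.448 CPM in the DRG libraries and 19.7, 20 and 18.8 CPM in the cord libraries, while the substance P precursor Tac1 was higher in DRG, as given above. Tlx3 and Prrxl1, which act in both DRG neurons and dorsal horn neurons, were higher in DRG (4.22 ± 0.12 and 2.99 ± 0.16).

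Ionotropic glutamate receptors were higher in cord for 10 of 17 genes and higher in DRG for 1. The AMPA receptor subunits Gria1, Gria2, Gria3 and Gria4 were at -3.21 ± 0.08, -2.90 ± 0.08, -1.98 ± 0.07 and -1.70 ± 0.06. Grin1, the subunit that all NMDA receptors share, was at 146 ± 11.9 CPM in DRG and 524 ± 15.6 CPM in cord (-1.84 ± 0.07), and Grin2d at -3.58 ± 0.13. The exception was Grik1, the kainate receptor subunit GluK1, at 268, 269 and 295 CPM in the DRG libraries and 19.3, 19.2 and 16.2 CPM in the cord libraries (3.93 ± 0.08, adjusted p = 4.57e-10). Metabotropic receptors and glutamate transporters gave 8 of 12 past 2-fold in cord and 0 in DRG; Grm5 was at 0.477 ± 0.0849 CPM in DRG and 64.4 ± 4.16 CPM in cord. Grm7 and Grm8 were at 0.62 ± 0.08 and 0.66 ± 0.11 and not past 2-fold.

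Of 31 presynaptic genes, 2 were past 2-fold in DRG, 8 in cord and 21 in neither, with a median of -0.11. Bsn and Pclo, scaffolds of the active zone, were at 0.12 ± 0.06 and -0.10 ± 0.05, and Syn1, the main synapsin, at 544 ± 51.6 CPM in DRG and 591 ± 39.5 CPM in cord. Snap25, part of the vesicle fusion complex, was at 1310.2, 1279 and 1273 CPM in the DRG libraries and 4098, 3627 and 4042 CPM in the cord libraries (-1.60 ± 0.06). Vamp1 was higher in cord (-1.91 ± 0.07), whereas Vamp2 was at 641 ± 85.1 CPM in DRG and 586 ± 17.9 CPM in cord, within 2-fold (-0.06 to 0.33). Sv2a, the target of levetiracetam, was at -3.09 ± 0.08 and its relative Sv2c at 2.44 ± 0.16, on opposite sides. Sncg, the gamma synuclein of sensory and motor neurons, was at 1528, 1578 and 1734 CPM in the DRG libraries and 86.9, 101 and 108 CPM in the cord libraries (4.04 ± 0.09), while Sncb, the beta synuclein, was at -2.53 ± 0.07. Of 25 postsynaptic density genes, 12 were past 2-fold in cord and 1 in DRG, or 2 in DRG without DRG library 1. Shank1 was at 29.2 ± 2.45 CPM in DRG and 298 ± 25.3 CPM in cord (-3.34 ± 0.09) and Camk2b at -2.50 ± 0.05; Camk2a, the partner of Camk2b in one kinase, was at 233 ± 26 CPM in DRG and 184 ± 27.3 CPM in cord and not past 2-fold. Homer2 was the member higher in DRG (1.50 ± 0.07).

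Motor neuron genes were present in cord. Chat, which makes acetylcholine, was at 35.1, 32.3 and 36.9 CPM in cord with 4 counts in DRG. Slc18a3, which loads it into vesicles, was at 0.0939 ± 0.111 CPM in DRG and 66.3 ± 8.54 CPM in cord and Slc5a7, which recovers choline, at 2.25 ± 0.605 CPM in DRG and 55.1 ± 3.43 CPM in cord. Mnx1, a motor neuron transcription factor, was at 2.24 ± 0.386 CPM in cord with 1 count in DRG. Of 19 cholinergic and motor neuron genes, 10 were past 2-fold in cord and 4 in DRG. The latter were Isl2, Calca, Prph and Anxa4, which sensory neurons express as well; Isl2 was at 143, 156 and 174 CPM in the DRG libraries and 3.4, 2.01 and 2.97 CPM in the cord libraries (5.82 ± 0.18).

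Hox genes, which record the position of a cell along the body axis, were higher in cord as a rule. The cord is described here only as lumbar, without its segments. For these genes, tissue and the axial level of the pieces taken cannot be told apart. Of 37 tested, 17 were past 2-fold in cord and 1 in DRG, with a median of -1.21. The most caudal members are described first. Hoxc13 had 0 counts in DRG and was at 20.6, 20.7 and 22.4 CPM in cord, at least 216-fold higher. Hoxb13 was at 17.5, 23.5 and 17.5 CPM in cord with 1 count in DRG, and Hoxc12 at 13.2, 12.8 and 15 CPM with 2 counts. Hoxa13 was at 1.55, 2.13 and 1.61 CPM with 1 count. In these 4 genes each cord library was above each DRG library. Hoxb8, of the middle of the cluster, was at 12.4, 12.3 and 9.64 CPM in the DRG libraries and 225, 231 and 228 CPM in the cord libraries (-4.31 ± 0.10), Hoxb9 at -2.55 ± 0.11 and Hoxc10 at -2.59 ± 0.13. By contrast, Hoxa9, Hoxd9, Hoxc9 and Hoxc6 were at -0.27 ± 0.08, -0.42 ± 0.11, 0.20 ± 0.14 and 0.36 ± 0.11 and not past 2-fold. Hoxd1, a gene of pain-sensing neurons in mouse, was the 1 Hox gene past 2-fold in DRG, at 16.5, 19.7 and 20.1 CPM in the DRG libraries and 0.416, 0.482 and 0.701 CPM in the cord libraries (5.14 ± 0.18, adjusted p = 1.55e-08). Hoxd10, Hoxd11 and Hoxc11 varied within DRG, with Hoxd10 at 9.93, 10.1 and 25.7 CPM, Hoxd11 at 2.28, 1.6 and 5.65 CPM and Hoxc11 at 1.02, 0.739 and 3 CPM in DRG libraries 1, 2 and 3. All 3 were highest in DRG library 3; without it Hoxd10 and Hoxd11, which were not past 2-fold, were called in cord, and Hoxc11, which was called in cord, was not past 2-fold without any one of the other 5 libraries. Hox genes overlap antisense transcripts, and the strand setting of the counting was not given, so those reads cannot be told apart.

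**Figure D4:**
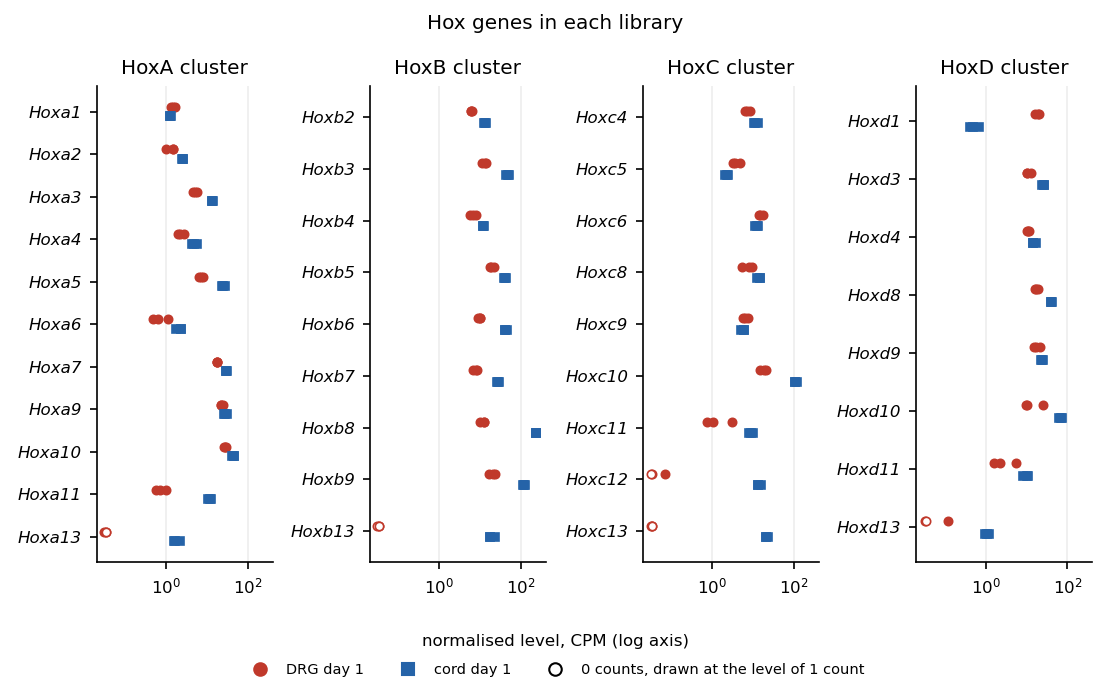
Level of the 37 Hox genes tested, in each library by cluster, in CPM on a log axis, ordered by gene number from the top; circles are the 3 DRG libraries, squares the 3 cord libraries, and open symbols are 0 counts drawn at the level of 1 count. Hoxc13, Hoxc12, Hoxb13 and Hoxa13 at the bottom of their clusters lie near or at 0 counts in DRG, and Hoxd1 at the top of the HoxD cluster stands higher in DRG.

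Myelin showed both sides. Of 26 oligodendrocyte genes, 18 were past 2-fold in cord and 1 in DRG, with a median of -3.55. Mobp, a protein of central myelin, was at 0.264, 0.493 and 0.448 CPM in the DRG libraries and 1202, 1084 and 1172 CPM in the cord libraries (-11.46 ± 0.15). Gm98, the older symbol of the myelin regulator Myrf, was at 6.15 ± 0.115 CPM in DRG and 249 ± 5.15 CPM in cord. Mbp, which both kinds of myelin contain, was at 7519, 8318 and 7222 CPM in the DRG libraries and 14938, 14361 and 15771 CPM in the cord libraries, a log2 fold change of -0.96 ± 0.07 that was not past 2-fold. Cnp, an enzyme of both myelins, was also not past 2-fold (-0.78 ± 0.05). Ugt8a, which makes the myelin lipid galactocerebroside and stands in both myelin lists, was called in DRG (1.17 ± 0.08), though not without DRG library 1, DRG library 2, cord library 1 or cord library 3, nor with upper-quartile or library-size scaling, DESeq2, voom or the fit of 15 libraries. Oligodendrocyte precursors gave 6 of 14 past 2-fold in cord and 1 in DRG: Gpr17, a receptor of cells about to become oligodendrocytes, was at 0.0447 ± 0.053 CPM in DRG and 58.7 ± 4.24 CPM in cord, and Matn4, a matrix protein, was the member higher in DRG (25.7 ± 1.69 CPM in DRG and 7.66 ± 0.57 CPM in cord). Pdgfra, the receptor that marks precursors but also fibroblasts, was at 32 ± 4.54 CPM in DRG and 35.1 ± 1.06 CPM in cord and not past 2-fold.

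Of 25 Schwann cell and peripheral myelin genes, 13 were past 2-fold in DRG and 1 in cord, with a median of 2.84. The count was sensitive to single libraries: it was 6 without DRG library 2, 7 without cord library 3, and 6 when DRG library 1 and cord library 2 were both left out. The spread lay in cord. Pmp22, a peripheral myelin protein, was at 7709, 8970.3 and 7304 CPM in the DRG libraries and 286, 1281 and 831 CPM in the cord libraries. Pmp22 and Prx, whose levels stand above, were both lowest in cord library 1 and highest in cord library 2, and still every DRG library was above every cord library. Prx was not past 2-fold (3.58 ± 0.93) but was so without cord library 1, with DESeq2 and in the fit of 15 libraries, and Pmp22 was called (3.33 ± 0.65) but not without any one DRG library or cord library 3. Other genes of the list were called in DRG under every alternative run: Ngfr, the p75 receptor that sensory neurons also carry, was at 755, 812 and 926 CPM in the DRG libraries and 5.21, 6.38 and 7.09 CPM in the cord libraries (7.07 ± 0.14), Erbb3 at 2.85 ± 0.21 and Cdh19 at 2.84 ± 0.21. Mag, shared by both myelins, was the member higher in cord, at 192 ± 26.3 CPM in DRG and 977 ± 66 CPM in cord.

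Astrocyte genes were higher in cord for 25 of 27 tested and higher in DRG for 0, with a median of -3.52. Slc1a2, the main glutamate transporter of the central nervous system, was at 6.07, 7.09 and 5.44 CPM in the DRG libraries and 2012, 1765 and 1912 CPM in the cord libraries (-8.25 ± 0.12, adjusted p = 6.33e-11). Aqp4, the water channel of astrocyte endfeet, was at 20.6, 15.7 and 14.2 CPM in the DRG libraries and 455, 429 and 435 CPM in the cord libraries (-4.70 ± 0.15). Gja1, the connexin that couples astrocytes, was at -3.96 ± 0.07, and Aldh1l1 at -2.56 ± 0.07. S100b, made by Schwann cells and satellite glia as well as astrocytes, was at 841 ± 38.7 CPM in DRG and 807 ± 52.8 CPM in cord, with an interval of -0.08 to 0.21, which lay within 2-fold. Satellite glia share many genes with astrocytes, and their list was divided, with 5 of 17 past 2-fold in DRG and 8 in cord. Fabp7, a fatty acid binding protein of satellite glia, was at 166, 182 and 183 CPM in the DRG libraries and 30.5, 33.7 and 34.6 CPM in the cord libraries (2.43 ± 0.07) and Entpd2, an enzyme that degrades extracellular ATP, at 1.20 ± 0.06 (not past 2-fold in the fit of 15 libraries). Glul, glutamine synthetase, was at -2.35 ± 0.07, higher in cord. Of 18 ependymal and cilia genes, 12 were past 2-fold in cord and 2 in DRG. Ccdc153 had 0 counts in DRG and was at 12.9, 14.3 and 10.8 CPM in cord, at least 129-fold higher, and the cilia gene Tekt1 was at 0.0672 ± 0.0611 CPM in DRG and 4.91 ± 0.69 CPM in cord. The 2 in DRG were Nes and Rarres2, which other cell types make as well.

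Genes of resident immune cells were divided between microglia and other macrophages. Of 23 microglial genes, 11 were past 2-fold in cord and 0 in DRG, or 1 in DRG without cord library 2. Sall1, a transcription factor of microglia, was at 0.693, 0.493 and 0.517 CPM in the DRG libraries and 41.6, 44.6 and 39.7 CPM in the cord libraries (-6.19 ± 0.13). Tmem119 was at 5.12, 5.15 and 6.03 CPM in the DRG libraries and 19.9, 20.2 and 20.9 CPM in the cord libraries (-1.90 ± 0.10), and P2ry12 and Siglech at -1.62 ± 0.15 and -3.40 ± 0.15. C1qa, a chain of complement C1q that microglia share with other macrophages, was at 40, 40.8 and 37 CPM in the DRG libraries and 37.7, 43.3 and 40.1 CPM in the cord libraries with an interval of -0.19 to 0.12. Of 26 genes of tissue macrophages and other leukocytes, 14 were past 2-fold in DRG and 0 in cord. Mrc1, the mannose receptor of border macrophages, was at 31.4, 26.8 and 30 CPM in the DRG libraries and 3.63, 7.55 and 4 CPM in the cord libraries (2.55 ± 0.29), Emr1 (F4/80) at 14.6 ± 2.78 CPM in DRG and 4.55 ± 0.764 CPM in cord (1.68 ± 0.17) and Ccr2, a receptor of recruited monocytes, at 9.22 ± 1.91 CPM in DRG and 0.503 ± 0.155 CPM in cord (4.19 ± 0.25). Mast cell proteases were low in DRG and lower in cord: Cma1 was at 2.51, 3.54 and 2.24 CPM with 0 counts in cord, at least 23.2-fold higher, and Mcpt4 at 3.89, 4.38 and 2.58 CPM with 3 counts in cord. In cord, Mrc1 and Emr1 were highest in library 2.

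MHC class II genes, which present antigen, gave 6 of 10 past 2-fold in DRG and 1 in cord, and the 6 became 3 without DRG library 2, DRG library 3 or cord library 3. H2-Aa was at 86.7, 102 and 91.2 CPM in the DRG libraries and 8.27, 25.9 and 12 CPM in the cord libraries, lowest in cord library 1 and highest in cord library 2 of the cord libraries, and was not past 2-fold without any one library except cord library 2. Ciita, the activator of class II genes, was at 3.09 ± 0.31 and H2-DMb1 at 3.01 ± 0.32. Ctss, a protease of the same pathway that microglia express, was the member higher in cord (-1.82 ± 0.11). All 12 class I presentation genes had a log2 fold change above 0, and 7 were past 2-fold, or 3 when DRG library 1 and cord library 2 were both left out. H2-D1 was at 226, 297 and 235 CPM in the DRG libraries and 94.6, 103 and 104 CPM in the cord libraries (1.33 ± 0.11) and B2m, the chain that all class I proteins share, at 363, 474 and 339 CPM in the DRG libraries and 132, 169 and 158 CPM in the cord libraries (1.36 ± 0.16); B2m was not past 2-fold without DRG library 1, cord library 1 or cord library 3. Counts of H2 genes are uncertain, since the family holds near-identical copies. Of 19 complement genes, 10 were past 2-fold in DRG and 0 in cord. Cd55, which protects cells from complement and which pain-sensing neurons express, was at 328, 326 and 364 CPM in the DRG libraries and 10.9, 17.3 and 12.4 CPM in the cord libraries (4.65 ± 0.19), C1s at 3.57 ± 0.20 and C3 at 141 ± 37.5 CPM in DRG and 39.7 ± 1.86 CPM in cord (1.84 ± 0.21). C3 was not past 2-fold when DRG library 1 and cord library 2 were both left out.

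Vessel genes were grouped by type of endothelium. Of 18 genes that all endothelium shares, 0 were past 2-fold in DRG, 2 in cord, Flt1 and Nos3, and 16 in neither. Over all genes tested the shares were 13.7% in DRG and 12.6% in cord, so the cord count lay near that of all genes. Flt1 was lost, which left 1, without DRG library 2, DRG library 3, cord library 2 or cord library 3, and with DESeq2 or voom. Pecam1 was at 49.7, 43.4 and 41.4 CPM in the DRG libraries and 46.7, 51.2 and 39.4 CPM in the cord libraries, and the groups overlapped. Cdh5, the endothelial cadherin, was at 0.65 ± 0.14. Of 22 genes of blood-brain barrier endothelium, 9 were past 2-fold in cord and 1 in DRG, the transporter Abcg2, which was lost without DRG library 2 or cord library 3, with upper-quartile or library-size scaling and with DESeq2 or voom. Slco1c1, which carries thyroid hormone into the brain, was at 10.2, 8.07 and 6.79 CPM in the DRG libraries and 75.2, 72.7 and 78.6 CPM in the cord libraries (-3.17 ± 0.14), Slc38a5 at -3.06 ± 0.23, Foxf2 at -2.73 ± 0.21 and Slc2a1 (GLUT1) at -1.49 ± 0.09. Cldn5, the claudin of tight junctions, was at 45.8 ± 5.45 CPM in DRG and 44 ± 4.59 CPM in cord, with an interval of -0.17 to 0.30 that lay within 2-fold. Genes of fenestrated and venous endothelium gave 4 of 11 in DRG and 0 in cord. Aqp1, a water channel that DRG neurons also express, was at 351 ± 60.1 CPM in DRG and 2.48 ± 0.547 CPM in cord (7.14 ± 0.22), and the others were Cd36, Gpihbp1 and Selp.

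Connective tissue genes were higher in DRG. Of 34 fibroblast, epineurial and meningeal genes, 18 were past 2-fold in DRG and 1 in cord (0 in the fit of 15 libraries, and 2 when DRG library 1 and cord library 2 were both left out), and of 24 basement membrane and perineurial genes, 16 and 2. Col1a1, a chain of type I collagen, was at 858, 952 and 963 CPM in the DRG libraries and 55.8, 120.1 and 81.3 CPM in the cord libraries (3.44 ± 0.33), and Lum, a collagen-binding proteoglycan, at 124, 116 and 131 CPM in the DRG libraries and 7.1, 13.7 and 7.3 CPM in the cord libraries (3.73 ± 0.30). Both were highest in cord library 2 among the cord libraries, and the groups did not overlap. Lama2, the laminin chain of Schwann cells, was at 2.55 ± 0.27, Nid1 at 2.70 ± 0.23 and Itgb4, an integrin of Schwann cells and perineurium, at 1.78 ± 0.15. The cord side held Ptgds, the prostaglandin D synthase of meninges and oligodendrocytes, at 349 ± 56.8 CPM in DRG and 879.6 ± 46.4 CPM in cord, not past 2-fold in the fit of 15 libraries. Of 11 adipocyte genes, 8 were past 2-fold in DRG, or 4 without cord library 2, 5 without cord library 3 and 2 with voom. Adipoq, the adipocyte hormone adiponectin, was at 8.61, 2.62 and 2.65 CPM in the DRG libraries and 0.34, 0 and 0.0824 CPM in the cord libraries, and Cfd (adipsin) at 53.8, 16.7 and 16.2 CPM in the DRG libraries and 0.264, 0.0803 and 0.0412 CPM in the cord libraries. Both were highest in DRG library 1. Adipoq was not past 2-fold without cord library 2 or cord library 3, nor either gene with voom. The 18 skeletal muscle genes had a median of 3.40, yet 0 were past 2-fold (edgeR; 1 had an adjusted p under 0.05 for any difference, and 1 was past 2-fold without DRG library 3, with DESeq2 or with the replicate number as a block). Acta1, the skeletal actin, was at 1289, 78.3 and 8.44 CPM in the DRG libraries and 69.7, 34.1 and 29.2 CPM in the cord libraries, so that DRG library 1 alone stood high and DRG library 3 lay below every cord library. The log2 fold change of Acta1 was 3.38 ± 1.98, and -0.02 without DRG library 1.

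The LTβR itself and the pathway it activates were also measured in both tissues. On binding its ligand the receptor releases the kinase NIK (Map3k14) from TRAF3, and the precursor made by Nfkb2 is processed to a partner of Relb. Ltbr was at 37.8, 41.4 and 36.7 CPM in the DRG libraries and 18, 23.2 and 20.1 CPM in the cord libraries (0.92 ± 0.09), below the 2-fold call, with groups that did not overlap. Of the 22 genes tested in the LTβR and NF-κB signalling list, 8 were past 2-fold in DRG and 0 in cord, with a median of 0.56. The shares of all genes tested were 13.7% and 12.6%. Nfkb2 was at 60.4, 62.8 and 48.3 CPM in the DRG libraries and 9.14, 12.7 and 10.3 CPM in the cord libraries (2.42 ± 0.15, adjusted p = 3.93e-05). Relb was at 24.9, 27.8 and 21 CPM in the DRG libraries and 6.8, 7.75 and 5.94 CPM in the cord libraries (1.85 ± 0.13). Bcl3, a nuclear partner of the NF-κB proteins, was at 12.7, 13.4 and 11.3 CPM in the DRG libraries and 0.793, 1.16 and 0.701 CPM in the cord libraries (3.82 ± 0.19). In DRG of mice given IgG the levels were 21.7, 21.5 and 16.2 CPM for Nfkb2, 15.4, 13.5 and 11.3 CPM for Relb and 10.6, 8.3 and 8.32 CPM for Bcl3, each library below every day-1 agonist DRG library and above every day-1 cord library. Day-1 DRG and cord groups did not overlap for 79.2% of all genes tested. The share of all genes that separate in this way from the IgG libraries was not computed, and the effect of the agonist was not tested. One of these IgG libraries had 31.5% of its uniquely placed reads outside annotated genes. Map3k14, Birc3, Nfkbie and Tnfaip3, the last 2 of which restrain the pathway, had log2 fold changes of 1.56 ± 0.17, 1.42 ± 0.12, 1.98 ± 0.11 and 1.81 ± 0.18; Birc3 was not past 2-fold with DESeq2.

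Some other genes of the pathway were not past 2-fold. Rela and Nfkb1, the canonical NF-κB subunits, were at 0.54 ± 0.08 and 0.53 ± 0.08, and the kinase Ikbkb at 0.06 ± 0.06. Traf3, which holds NIK in check, was at 55 ± 1.94 CPM in DRG and 96.1 ± 4.72 CPM in cord (-0.80 ± 0.06). The ligand genes Lta and Tnfsf14 had too few counts to be tested, and Ltb was at 0.722 ± 0.136 CPM in DRG and 0.41 ± 0.00735 CPM in cord. Among 15 genes listed as LTβR targets, 7 could be tested, and the lymphoid chemokines Ccl19, Ccl21a and Cxcl13 were at or near 0 in both tissues. Like the other lists, this list was chosen with earlier results of these data known. Of the 7 tested, 1 was past 2-fold in DRG and 1 in cord, against 13.7% and 12.6% of all genes tested. Ptges, which makes prostaglandin E2, was higher in DRG (38.1, 33.2 and 28.7 CPM against 4.42, 5.78 and 4.66 CPM, 2.76 ± 0.14). Cx3cl1, fractalkine, a chemokine that neurons make for microglia, was higher in cord (34.3, 35.8 and 34.2 CPM against 417, 406 and 434 CPM, -3.58 ± 0.06). Icam1, Vcam1, Cxcl12 and Csf1 were not past 2-fold (0.94 ± 0.17, 0.46 ± 0.14, 0.33 ± 0.14 and -0.22 ± 0.10).

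**Figure D5:**
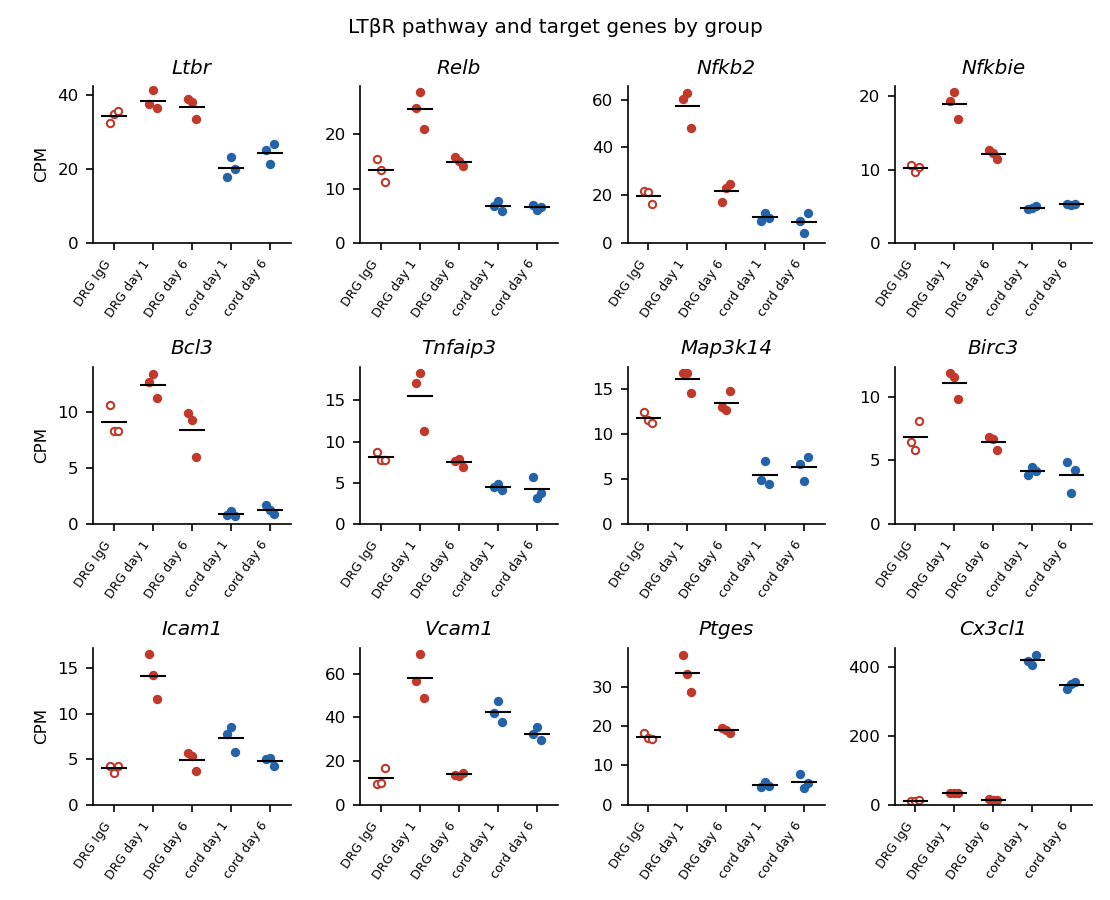
Level of 12 LTβR pathway and target genes in CPM (vertical, from 0, scaled per gene) in the 5 groups of DRG and cord; points are libraries and bars the mean of 3. The day-1 DRG libraries stand above the day-1 cord libraries in every panel except Cx3cl1, where cord is higher, and open circles are DRG after IgG.

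Promoter sequences of these genes are shown because NF-κB proteins bind a short DNA motif near the genes they control. In RefSeq windows of 250 bases before the start of transcription (build GRCm38.p6, matched by symbol, not the mm9 build of the counts), the letters GGG, any 2 bases and TTTCC were searched on both strands, where the other strand reads GGAAA, any 2 bases and CCC. They were found in 9 of the 35 genes with a window among the 39 of both LTβR lists, and in 1.65% of all genes with windows (447 of 27025). The 5 windows below hold the motif in capitals, are written 5′ to 3′ on the strand of the gene and overlap no annotated exon. Of the 5 genes shown, Tnfaip3 was past 2-fold in DRG, and Nfkbia, Traf3, Cyld and Csf1 were not past 2-fold in either tissue. Matches in Rel and Madcam1 also overlapped no exon and are not shown. The stretches around the matches in Ltb and Nfkb2, flanking bases included, overlapped an annotated exon, and Nfkb2 was past 2-fold in DRG. A match is a description of the letters and not a measured binding site.
Tnfaip3 (chr10:19015411-19015447, minus strand): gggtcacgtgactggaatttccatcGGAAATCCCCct
Nfkbia (chr12:55492648-55492701, minus strand): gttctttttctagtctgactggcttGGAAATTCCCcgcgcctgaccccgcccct
Traf3 (chr12:111166335-111166369, plus strand): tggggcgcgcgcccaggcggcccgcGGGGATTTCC
Cyld (chr8:88696848-88696907, plus strand): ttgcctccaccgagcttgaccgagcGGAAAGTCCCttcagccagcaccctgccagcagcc
Csf1 (chr3:107760589-107760648, minus strand): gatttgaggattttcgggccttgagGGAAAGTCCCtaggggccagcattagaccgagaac

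Oxidative phosphorylation, the respiratory chain of mitochondria, was higher in cord. All 32 tested genes had a log2 fold change below 0, 30 with an adjusted p under 0.05 and 0 past 2-fold (1 when DRG library 1 and cord library 2 were both left out), and the median was -0.55; 37.7% of all genes had such a p in that direction. Cox4i1, a subunit of cytochrome oxidase, was at 336, 324 and 321 CPM in the DRG libraries and 574, 521 and 603 CPM in the cord libraries (-0.79 ± 0.06), and Sdha, of complex II, at -0.94 ± 0.06. Cholesterol synthesis ran the other way. All 20 tested genes were higher in DRG by adjusted p, which 37.4% of all genes were, and 11 of them were past 2-fold, with a median of 1.17. Sqle, the squalene epoxidase of the pathway, was at 346, 339.9 and 342 CPM in the DRG libraries and 135, 127 and 131 CPM in the cord libraries (1.39 ± 0.05, adjusted p = 1.13e-05), and Idi1, which interconverts its isoprenoid units, at 10.9 ± 0.982 CPM in DRG and 3.47 ± 0.736 CPM in cord (1.65 ± 0.16). Insig1, which shuts the pathway down, was at 0.22 ± 0.07 and not past 2-fold. Immediate early genes had no shared direction, with 5 of 16 past 2-fold in DRG and 3 in cord: Atf3, a mark of injured neurons, was at 18.5, 17.1 and 11 CPM in the DRG libraries and 2.95, 2.97 and 1.69 CPM in the cord libraries (2.62 ± 0.28) and Jun at 1.30 ± 0.06, while Npas4, an activity gene of central neurons, was at 0.594, 0.339 and 0.517 CPM in the DRG libraries and 12.7, 12.9 and 10.6 CPM in the cord libraries (-4.63 ± 0.20) and Arc at -2.54 ± 0.09.

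The same tissue comparison was made in the 6 libraries of day 6, which the day-1 comparison did not use. Of 15618 genes tested on day 6, 3103 were past 2-fold (19.9%), 1361 in DRG (8.71%) and 1742 in cord (11.2%). The day-1 calls in DRG were found again for 1258 genes, 59.2% of the day-1 list and 92.4% of the day-6 list, and those in cord for 1624 genes, 83.1% and 93.2%; 0 genes were called in opposite directions. Log2 fold changes on day 1 and on day 6 correlated at 0.955 across 15442 genes, with a slope of day 6 on day 1 of 0.891; genes are not independent replicates, and no p is given. Of 47 lists, 21 gave fewer DRG calls on day 6, 20 as many and 6 more. The 7 that gave at least 5 fewer were the LTβR and NF-κB list, given below, and those of Schwann cells and peripheral myelin, with 4 past 2-fold in DRG in place of 13, fibroblasts and meninges (8 in place of 18), basement membrane (5 in place of 16), tissue macrophages and other leukocytes (8 in place of 14), and MHC class I and class II presentation (0 in place of 7 and of 6). Prx was at 977, 56.1 and 1073 CPM and Col1a2 at 417, 81.1 and 367 CPM in cord libraries 1, 2 and 3 of day 6, against 51.8, 481 and 240 CPM and 85.2, 240.1 and 145 CPM on day 1, so day-6 libraries 1 and 3 held more of both genes than any day-1 cord library. The part of this in the lower counts was not tested. On day 6, 25 of 27 astrocyte genes and 16 of 19 inhibitory genes were past 2-fold in cord, and 19 of 28 sensory neuron genes in DRG. The LTβR and NF-κB list gave 1 of 22 in DRG, Bcl3, in place of 8. Nfkb2 was at 17, 22.9 and 24.7 CPM in DRG and 9.24, 4.25 and 12.6 CPM in cord on day 6, so that the groups still did not overlap but the log2 fold change was 1.33 ± 0.39 in place of 2.42 ± 0.15. Relb was at 15.8, 15 and 14.1 CPM in DRG and 6.95, 6.11 and 6.6 CPM in cord (1.20 ± 0.11). The interaction test described next gave an adjusted p of 0.521 for Nfkb2 and of 0.473 for Relb (edgeR quasi-likelihood test, Benjamini-Hochberg adjustment).

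Whether the tissue difference itself changed between days was tested as an interaction over 12 libraries. Of 15966 genes, 2 passed (0.0125%; edgeR, adjusted p under 0.05), and 1496 had an unadjusted p under 0.05. The count was 44 with DESeq2, 214 without cord library 2 of day 6 and 3 without DRG library 3 of day 1. Cx3cl1 was at 16.2, 14 and 13.1 CPM in DRG and 335, 351 and 357 CPM in cord on day 6, and its log2 fold change went from -3.58 ± 0.06 on day 1 to -4.58 ± 0.10 on day 6. Vcam1, an adhesion molecule of activated endothelium, was at 56.8, 68.8 and 49.1 CPM in DRG and 42.2, 47.4 and 37.9 CPM in cord on day 1, and at 13.8, 13.3 and 14.7 CPM and 32.2, 35.7 and 29.6 CPM on day 6. Its log2 fold change went from 0.46 ± 0.14 to -1.22 ± 0.10, so the DRG libraries were all above the cord libraries on day 1 and all below them on day 6. In DRG of IgG mice Cx3cl1 was at 12.2, 10.4 and 12.7 CPM and Vcam1 at 9.71, 9.81 and 16.8 CPM.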

How the data were processed

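RNA sequencing libraries of DRG and lumbar cord were compared, 3 per group. The authors deposited unnormalized read counts for each gene. The submitters' processing notes name bcl2fastq, TopHat2, HTSeq and the genome build mm9; versions, annotation and the strand setting are not given in the sources used here. A poly(A) kit that marks strand was used, per the labels' protocols. The 5 summary lines of each file were removed, and 0 columns belonged to other samples. Reads with several placements are not counted by HTSeq, which lowers the counts of copied genes.

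Counts were tested with the edgeR quasi-likelihood test (edgeR 4.0.16) in R 4.3.3 on the 6 day-1 libraries, after TMM scaling and edgeR's own low-count filter, with robust dispersion estimates. The 2-fold call tested the same fit against an absolute log2 fold change of 1. Tests were 2-sided, and p-values were adjusted by Benjamini-Hochberg across the genes tested, with a threshold of 0.05. CPM use TMM factors over the 15 DRG and cord libraries. Of 105 pairs of libraries, 0 were identical. Alternatives included RLE, upper-quartile and no scaling, other filters, DESeq2 1.42.0, voom (limma 3.58.1), a replicate block and leaving out each library. The pipeline was tested on simulated data.

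The genes described come from 47 lists with 981 symbols, of which 964 were found under the listed symbol, 10 under an older one and 7 not at all; these were chosen with earlier results of these data known. Any list member could be named. In addition, the 15 genes with the largest fold change in each direction were named, among genes past 2-fold with groups that did not overlap and a mean of at least 10 CPM in the higher tissue, without provisional gene models. For the interaction, the rule named up to 10 genes that passed. Some genes that these rules allow are not reported here.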

Additional observations from a re-analysis of the deposited data

Results flagged for a closer look

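The tissue difference changed between day 1 and day 6 for 2 genes by the test of that change itself. For Cx3cl1 the log2 difference between tissues on day 1 minus that on day 6 was 1.00 ± 0.10 (adjusted p = 0.00248, edgeR quasi-likelihood test over 15966 genes). All 3 DRG libraries of day 1 were above all 3 of day 6, and all 3 cord libraries of day 1 were above all 3 of day 6. For Vcam1 it was 1.68 ± 0.17 (adjusted p = 0.00248, same test), again with every DRG library and every cord library of day 1 above those of day 6 in its tissue. Both genes were picked by this test from the same libraries, so the separations describe them and add no support. The share of all genes with such a separation was not computed. Over the alternatives run with edgeR or voom the adjusted p ranged from 0.000621 to 0.0241 for Cx3cl1 and from 0.00123 to 0.0225 for Vcam1. Day 6 followed 2 injections, so day and number of injections cannot be told apart.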

How the results depend on the processing

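On day 1, the count of genes called past 2-fold was 3399 with DESeq2 and 3645 with voom, against 4080. When 4-fold replaced 2-fold, 1725 genes were called, 762 in DRG and 963 in cord. The count past 2-fold was 4338 with no filter on low counts and 3705 with a filter at 1 CPM in 3 libraries. Leaving out 1 library at a time gave 3805 to 4140 genes past 2-fold and 11047 to 11484 genes by adjusted p alone on day 1, and 2815 to 3213 past 2-fold on day 6. The DRG share of the calls past 2-fold lay between 50.2 and 53.4% over the alternatives run, leaving aside the 4-fold threshold and the pair of libraries left out, and scaling moved the median gene by at most -0.044 in log2. The count for the change of the tissue difference between days, 2 genes, rose to 44 with DESeq2 (35 and 9 by direction) and ranged from 2 to 214 when libraries were left out, with 214 (151 and 63) without cord library 2 of day 6; the cause was not tested. Of 287 named genes tested, 252 kept their direction and their side of the threshold under those of the 16 day-1 alternatives in which they were tested. A gene not tested in an alternative was not counted as changed there.

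Genes near 0 changed sign. Slc17a6 was at 0.00 with RLE scaling, with the filter at 1 CPM and with DESeq2, and between -0.07 and 0.07 when single libraries were left out, above 0 without DRG library 1 (0.04), DRG library 2 (0.01) or cord library 1 (0.07). The range over single libraries left out was -0.02 to 0.16 for Cldn5, below 0 without cord library 1 (-0.02) or DRG library 1 (-0.01), -0.13 to 0.06 for Pecam1, above 0 without DRG library 2 (0.01), DRG library 3 (0.03) or cord library 2 (0.06), and -0.09 to 0.01 for C1qa, above 0 without DRG library 3 or cord library 2 (0.01 each). For Acta1 it was -0.02, without DRG library 1, to 3.95. Without DRG library 1 and cord library 2 together, Acta1 was at -0.16 and C1qa at 0.02.

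Same-numbered DRG and cord libraries correlated at 0.115, 0.028 and 0.121 in their deviations from the group means. Libraries with different numbers correlated at -0.126 to 0.036, the highest being DRG library 2 with cord library 3. The labels do not say whether equal numbers share an animal, so the libraries were not paired in the main test. Whether they share an animal cannot be told from these values. With the replicate number as a block, 11519 genes were called by adjusted p and 3970 past 2-fold on day 1, 3004 past 2-fold on day 6 and 2 for the change between days. Among the lists, the block moved the DRG counts of Schwann cells from 13 to 7, of mural cells from 1 to 2 and of skeletal muscle from 0 to 1.

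For genes at 0 counts in 1 tissue, depth limits the fold to a lower bound. Each group had 3 libraries, and tissue and library preparation cannot be told apart.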

Other observations

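Gap junction and pannexin genes, which form channels between or out of cells, gave 5 of 12 past 2-fold in cord and 1 in DRG. Panx1 was at 46.4, 52.5 and 58.7 CPM in the DRG libraries and 12.6, 12.2 and 14.5 CPM in the cord libraries (2.01 ± 0.10), whereas its relative Panx2 was at 88.4, 90.5 and 95.2 CPM in the DRG libraries and 317, 293 and 348 CPM in the cord libraries (-1.80 ± 0.07). The groups of both genes did not overlap. Gjb6, an astrocyte connexin, was at -4.11 ± 0.08, and Gjd2, the connexin of electrical synapses between neurons, at 3.08 ± 0.0826 CPM in DRG and 25.3 ± 2.71 CPM in cord (-3.03 ± 0.11).

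A set of genes varied together among DRG libraries of all groups; they were picked after their values were seen, and no test is given. Hoxd10 was at 12.7, 7.26 and 17.1 CPM after IgG, 9.93, 10.1 and 25.7 CPM on day 1 and 21.3, 7.57 and 20.5 CPM on day 6 in DRG libraries 1, 2 and 3. Chrna3, a nicotinic receptor subunit, was at 24.4, 15.2 and 36.3, 11.3, 10.6 and 39.8 and 38.2, 10.4 and 36.8 CPM in the same libraries, and Cartpt, a neuropeptide precursor, at 16.7, 10.5 and 23.7, 6.87, 9.06 and 22.3 and 22.8, 10.2 and 23.6 CPM. IgG library 3, day-1 library 3 and day-6 libraries 1 and 3 were the 4 highest for each of these genes. Chrnb4, which joins Chrna3 in a receptor, was also highest in these 4 libraries (14.7, 10.1 and 25.2, 8.52, 9.09 and 25.8 and 21.8, 7.77 and 22 CPM). Hoxd10 was at 73.6, 64.2 and 71.7 CPM in cord on day 1. What differed between these libraries was not tested.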
